A study of Callorhinchus milii with 12 samples.

Results

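Across 224524 adjoining 2 kb windows of the elephant shark (*Callorhinchus milii*) genome that had at least 50 CG methylation calls in each of 2 deep-sequenced livers, 2151 were less methylated in the female liver than in the male liver. A window was kept where the female level, the share of calls read as methylated, was 25 percentage points or more below the male level with all calls, and 15 points or more below it in sequencing lane 1 and in lane 2 alone. These 2151 windows were 0.958% of the windows compared. They were chosen by the measured difference between the livers itself, so their levels are a description and carry no test. The same limits with the sign turned, female above male, kept 465 windows (0.207%). Without the lane limits the counts were 2647 (1.18%) female lower and 608 (0.271%) female higher.

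The series comprised 12 whole-genome bisulfite libraries from adult elephant sharks, whose tissue came from recently deceased animals supplied by commercial fishermen. The windows rest on the libraries labelled as deep-sequenced female liver and deep-sequenced male liver, with 1 animal per sex and no treatment in either. Sex therefore cannot be told apart from anything else that differed between these 2 animals or their libraries. Both were made by post-bisulfite adapter tagging, in which DNA is converted with bisulfite before adapters are attached, so that unmethylated cytosines are read as thymines and methylated cytosines stay cytosines.

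In vertebrate somatic tissue most CG dinucleotides are methylated, and the mark is copied to the new strand by maintenance methyltransferases after DNA replication. Active regulatory DNA often stands out as short valleys without the mark, and many vertebrate promoters sit in such CG-rich, unmethylated stretches, the CpG islands. Long domains of intermediate methylation, in which neighbouring molecules differ from one another, are known from some mammalian tissues and cultured cells.

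The female liver gave 30080951 CG calls and the male liver 38128530. Over all calls the methylated share was 69.0% for the female and 71.6% for the male. The median difference over the compared windows was -1.90 points (SD 8.81), and the female was lower in 60.7% of them, so the kept windows were the far tail of a distribution that was already displaced. When female levels were raised by that median, 1392 windows passed as female lower and 726 as female higher, which took the female-lower share of both sets from 82.2% to 65.7%.

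In the female liver the kept windows had a median level of 44.1% (quartiles 34.5% and 52.2%), against 74.2% for all compared windows. In the male liver their median was 74% (quartiles 65.2% and 81.9%), against 76.8% for all. The male level of these windows was thus near the genome-wide value and the female level was intermediate. The 465 windows kept with the sign turned showed the reverse, with a male median of 43.6% and a female median of 74.1%. Such a contrast was therefore not particular to the female-lower windows. Set against the 50 kb around each window, the male level of the 2151 windows was higher by a median of 7.24 points. For all compared windows this male median was 2.56 points. The female medians were -16.0 and 2.65 points. Between 30% and 60% lay the female level of 1627 of the 2151 windows (75.6%), a range that held 18.9% of all compared windows. Under 20% in the female were 109 of the kept windows (5.07%), against 3.32% of all compared windows, and 11 of the 109 were at 60% or more in the male.

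The median difference was -28.6 points, and 1341 windows (62.3%) lay between -25 and -30. A further 716 lay between -30 and -40, 81 between -40 and -50, and 13 at -50 or lower. Most members thus sat close to the limit. The 3 windows nearest to it on the inside differed by -25 points: 51.9% against 76.9% at 3862001 to 3864000 of scaffold NW_006890090.1, 57.9% against 82.9% at 4180001 to 4182000 of NW_006890059.1, and 50.0% against 75% at 9530001 to 9532000 of NW_006890060.1. Just outside it, at -24.99, -24.98 and -24.98 points, were 1624001 to 1626000 of NW_006890131.1, 436001 to 438000 of NW_006890237.1 and 4206001 to 4208000 of NW_006890059.1. Windows on either side of the limit were thus separated by far less than their counting error.

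**Figure D1:**
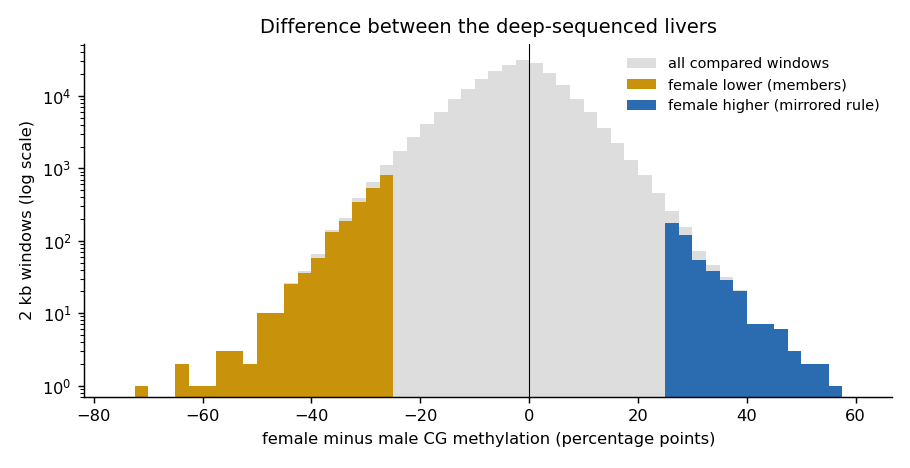
Number of 2 kb windows (log scale) by female minus male CG methylation in percentage points, in bins of 2.5 points. Grey bars are all 224524 compared windows, gold bars the 2151 windows with the female lower and blue bars the 465 with the female higher; grey beyond 25 points on either side shows windows that failed a lane limit.

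Counting error was large for single windows. With whole sequencing reads as the units, since calls on 1 read come from 1 molecule, the standard error of the difference had a median of 9.41 points over the kept windows. The 95% interval of the difference lay wholly below -15 points in 412 windows (19.2%) and wholly below -25 points in 47. These intervals cover counting error only and say nothing of variation between animals. They are centred on the differences that chose the windows and make no allowance for that choice, so these counts are a description only.

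Depth was tied to membership. The kept windows had a median of 69 female calls on 34 reads and 87 male calls on 41 reads, whereas all compared windows had 89 and 112 calls. Among windows with 50 to 59 calls in the liver with fewer, 1.82% were kept, a share that fell in each deeper class to 0.245% at 150 calls or more. The mirrored windows fell too, from 0.377% to 0.114%, so that female-lower windows outnumbered them 4.83 times in the shallowest class and 2.16 times in the deepest. With at least 100 calls in each liver, 330 of 87201 windows (0.378%) were female lower and 115 (0.132%) female higher.

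The lanes gave a measure of how far a choice carried over to calls it had not used. Windows were chosen for a difference of -25 points or lower in 1 lane alone, among 177928 windows with at least 25 calls per lane and liver, and then read in the other lane. The 4846 windows chosen in lane 1 had a median of -29.5 points there and -6.56 points in lane 2, where all 177928 had -1.69. In lane 2, 10.6% of them were again at -25 or lower, against 3.25% of all. The 5780 windows chosen in lane 2 had a median of -6.52 points in lane 1, with 8.88% at -25 or lower against 2.72% of all. Most of a difference seen in 1 lane was therefore not seen in the other, while a smaller displacement towards a lower female level was. Both lanes sequenced the same library, so they do not stand in for a second animal.

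Within the kept windows the female level was lower at most of the CG sites that had enough calls to be compared. Such sites were found in 65.9% of the kept windows. CG sites with at least 5 calls in each liver numbered 3988, of which 80.1% were lower in the female and 9.98% higher. At 53.4% of them the female was at least 25 points lower, against 11.9% of such sites in all compared windows. Sites at 20% or less in the female and 80% or more in the male numbered 327 (8.2%), against 0.740% over all compared windows. In 1232 windows with at least 10 calls per liver in at least 3 of their 500 bp bins, every such bin was lower in the female in 77.8%, against 14.1% of all compared windows with such bins. Every bin was lower by at least 15 points in 38.4%, against 0.767% of all, and at most 1 bin was in 7.95%, against 87.8%. The decrease was on both DNA strands: in 1833 windows with at least 10 calls per strand and liver the medians were -29.8 and -30 points, and the female was lower on both in 95.6%, against 33.3% of all compared windows with such calls. These breakdowns use the calls that chose the windows, so they show only where in the windows the difference lay.

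Single reads with at least 3 CG calls showed how methylation was spread over molecules. In the kept windows 34.9% of 24539 female reads were wholly unmethylated, 43.7% mixed and 21.4% wholly methylated. Of 31825 male reads in the same windows 10.3% were wholly unmethylated, 36.0% mixed and 53.7% wholly methylated, close to the male makeup over all compared windows (11.8%, 36.2% and 52.0%). The female windows at 40% to 50% had 31.4% unmethylated and 47.4% mixed reads, beside 28.2% and 50.9% in all compared windows at that female level. Mixed reads were thus the commonest class in the female over the whole set, but not at each level. At 20% to 30% wholly unmethylated reads were commonest, with 55.3%, and 34.4% were mixed, against 29.9% mixed in all compared windows of that level. At 30% to 40% mixed reads made up 43.9% against 42.9%. Above 50% they were fewer than in all compared windows: 47.9% against 52.8% at 50% to 60%, and 44.7% against 50.4% at 60% to 70%. Unmethylated reads were more frequent there, 22.4% against 18.8% and 16.1% against 11.7%. These reads hold the calls that chose the windows, so their makeup is a description only.

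The windows with the largest differences were read in the same way. In the 94 windows at -40 points or lower, 61.7% of 1110 female reads were wholly unmethylated and 24.3% were mixed. Their female levels were low, with a median of 26.1%, and in the 32 of them at 20% to 30% the makeup was near that of all compared windows at this level: 63.0% unmethylated and 26.3% mixed, against 57.0% and 29.9%. At 30% to 40% 22 windows had 27.5% mixed reads out of 229, against 42.9%. At 40% to 50% 13 windows had 26.9% mixed reads out of 197, against 50.9%. The makeup thus departed from that of all windows of like level mainly above 30%, in few windows and reads. These reads too hold the calls that chose the windows. How far the choice itself shaped their makeup was not tested. Leaving out the 4 of these windows that lie in a 34 kb stretch described further on, the 94 windows became 90, with 61.8% unmethylated and 24.8% mixed female reads.

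The kept windows were next set beside all compared windows for CG number and coverage. They had a median of 33 CG sites, against 39 in all compared windows, and 70.8% were below that value. Call number and CG number go together, however, and within classes of depth the medians were nearly alike: 29 against 30 sites at 50 to 74 calls, 38 against 38 at 75 to 99, 46 against 48 at 100 to under 150, and 62.5 against 66 at 150 or more. The female-to-male ratio of calls, centred on its median over compared windows, had a median of 0.02 on the log2 scale in the kept windows, and 8% of them were at 0.5 or more against 7.11% of all. Coverage of the 2 livers was therefore not skewed over the set as a whole.

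The level of the 50 kb around a window, with the window itself left out, had a median of 64.5% in the kept windows and 73.5% in all compared windows, both livers joined. Surroundings under 60% were found for 813 of the kept windows (37.8%), for 17.4% of all and for 19.4% of the mirrored windows. The share of windows kept was 2.26% where the surroundings were at 50% to 60% and 2.16% at 40% to 50%, and it fell on both sides, to 0.392% at 80% to 90% and to 0.319% at 10% to 20%. The mirrored share stayed between 0.154% and 0.237% from 40% to 90%. It was higher at 20% to 30% and at 30% to 40%, with 0.265% and 0.344%, from 3 and 10 windows. In each of the 4 classes of depth the kept windows had lower surroundings than all windows of that depth, with medians of 63.4% against 71.7% at 50 to 74 calls and 71.6% against 76.4% at 150 or more. Surroundings were read from the same livers as the windows, so they are not wholly separate from the choice.

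**Figure D2:**
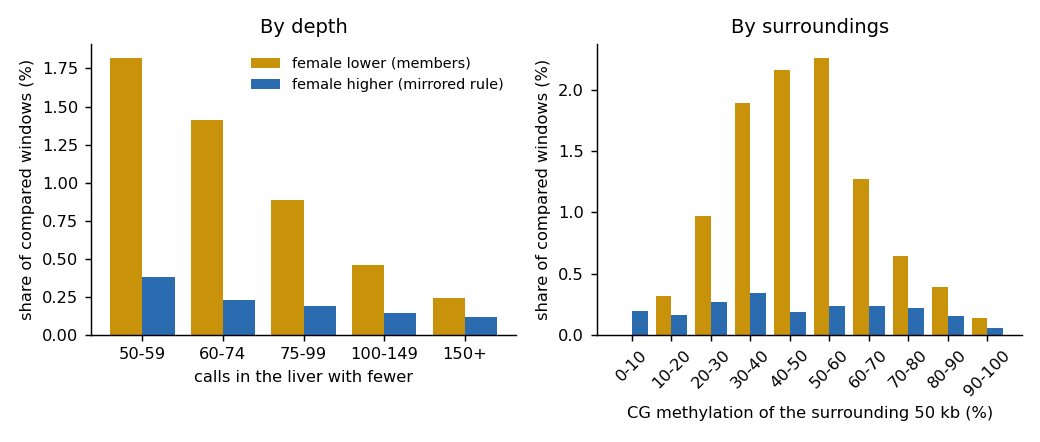
Share of compared 2 kb windows (percent) kept as female lower (gold) or female higher (blue), by the number of calls in the liver with fewer (left) and by the CG methylation of the surrounding 50 kb in percent (right). The female-lower share falls from 1.82% to 0.245% with depth and is highest, at 2.26%, in surroundings of 50% to 60%.

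A lower female level was also found in windows around the kept windows. Compared windows that were not kept themselves had a mean difference of -5.41 points when 2 kb away from a kept window, -4.96 at 10 kb, -4.16 at 50 kb and -3.18 at 200 kb. Their counting error was about 0.17 points (SE), and the mean of all compared windows was -2.39 points. Around the mirrored windows the means were -0.51 points at 2 kb, -1.70 at 10 kb and -0.84 at 50 kb, with counting errors of 0.31 to 0.33. Neighbours of kept windows thus lay below the mean of all compared windows, and those of mirrored windows lay above it but still below 0. That mean itself varied with the surroundings. All compared windows had means of -3.94 points in surroundings of 40% to 50%, -3.76 at 50% to 60%, -2.82 at 60% to 70% and -2.18 at 70% to 80%. The flanks were not matched to windows of like surroundings, so how far they exceed the level of such regions was not tested.

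**Figure D3:**
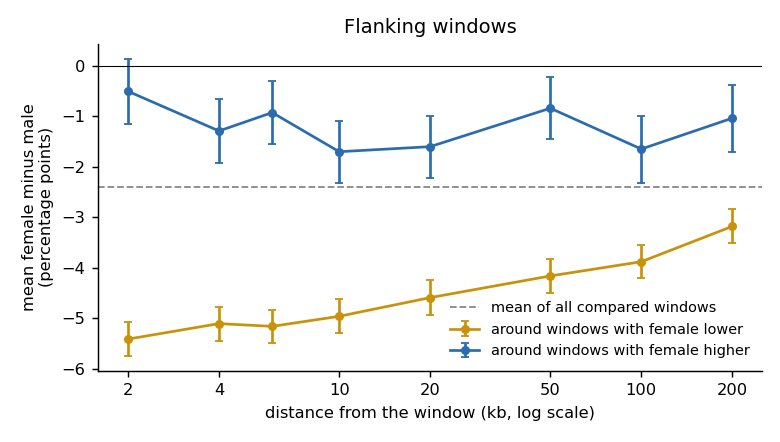
Mean female minus male CG methylation (percentage points) of compared windows at 2 to 200 kb (log scale) from kept windows (gold) and from mirrored windows (blue), kept and mirrored windows themselves left out of their own line. Bars are 95% counting intervals and the dashed line is the mean of all compared windows, -2.39 points; the gold line rises from -5.41 to -3.18 and stays below the dashed line.

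Of 2598 compared neighbours of kept windows 132 (5.08%) were kept as well, beside 0.958% of all compared windows. Neighbours were not matched for surroundings, and the kept share was 2.26% in surroundings of 50% to 60%. Of 594 neighbours of mirrored windows none was a mirrored window, beside 0.207% of all. At that share very few would be met among 594, so this absence says little. Most kept windows had no kept neighbour, though only 52.6% of windows with a call were deep enough to be compared. There were 57 runs of adjoining kept windows, the longest of 8 kb, with 123 windows in all, and 2028 single windows (94.3%).

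The longest run covered 60001 to 68000 of NW_006890094.1. Its 4 windows had 46.2%, 27.4%, 30.5% and 38.0% in the female and 71.7%, 65.3%, 67.9% and 71.0% in the male, so that no female window reached the lowest male one. The run at 5482001 to 5488000 of NW_006890090.1 had 18.9% of 180 female calls methylated and 56.7% of 247 male calls. The run at 36001 to 42000 of NW_006890106.1 had 17.1% of 193 and 50.5% of 222. These 2 runs held the lowest female levels among the 6 named. The other 3 were 416001 to 422000 of NW_006890215.1 with 42.8% against 74.1%, 1788001 to 1794000 of NW_006890173.1 with 32.7% against 62.9%, and 34001 to 40000 of NW_006890091.1 with 36.2% against 65.1%. In all 6, the 50 kb around the first window was also lower in the female: 40.4% against 60% at the longest run and 50.9% against 60.7% at the last. These surroundings leave out the first window only and so take in the rest of the run. There were 7 runs of 3 windows. Those named here were taken by the largest summed difference, so they are the more extreme of these runs.

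The window with the largest difference, 4276001 to 4278000 of NW_006890100.1, had 24 of 108 female calls methylated (22.2%) and 125 of 134 male calls (93.3%). The difference was -71.1 points, with a counting SE of 9.96, and was -73.4 in lane 1 and -66.0 in lane 2. The windows on either side differed by -1.04 and -2.02 points. All calls of the kept window lay in its last 500 bp bins, which had female levels of 23.5% and 17.4% and male levels of 92.1% and 100%. The bin after them had 9 of 12 female calls (75%) and 14 of 19 male calls (73.7%) methylated. In the next bin 9 of 12 female calls (75%) and 27 of 29 male calls (93.1%) were methylated. The female level thus rose from 1 bin to the next on that side, on few calls. Neither liver had a call from 4275501 to 4277000, so the edge before the low bins was not seen.

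Some of the largest differences bordered on sequence that was unmethylated in both livers. At 1968001 to 1970000 of NW_006890054.1, 1 of 74 female calls was methylated (1.35%) and 51 of 77 male calls (66.2%). The 2 bins of 500 bp just before it were at 4.55% and 0% in the female and at 1.69% and 0% in the male. The unmethylated stretch thus went on into the window in the female, where the next bin had 0 of 62 calls methylated, while the male had 63.1%. At 8488001 to 8490000 of NW_006890062.1 the window had 4.90% of 102 female calls and 69.5% of 82 male calls methylated. In the 4 bins of 500 bp up to the middle of this window both livers were at 20% or less, and in the next 2 bins the female stayed at 8.33% and 12.5% while the male was at 87.5% and 86.7%. Calls were spread unevenly: the first 2 bins of the window, low in both livers, held 40 and 18 female calls but 10 and 10 male calls. The size of the difference over the whole window thus depends in part on where the calls fell.

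The window at 568001 to 570000 of NW_006890284.1 also followed an unmethylated window, with 23.8% of 151 female calls and 84.6% of 169 male calls. The preceding window was at 5.42% in the female and 2.98% in the male. In the kept window a single bin carried the difference, with 18.2% of 137 female calls and 85.6% of 153 male calls, and the bin after it had 78.6% against 85.7%. The bins between held no female call and 2 male calls, so the course of methylation from the unmethylated window to this bin was not seen. At these 3 places the difference was narrow: over the 4 kb of the 2 windows shifted by 1 kb, which take in the flanking sequence, it was -23.9, -31.7 and -28.2 points in the order above. At NW_006890284.1 it was -39.2 points with 1 call per read. Whether they are promoters or enhancers was not analysed here, since no annotation of this assembly was used.

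The other large differences did not border on a window seen to be unmethylated in both livers. At 230001 to 232000 of NW_006890367.1 the levels were 21.5% and 80.6% (-59.1 points), within surroundings that had 38.5% for the female and 54.5% for the male. At 982001 to 984000 of NW_006890058.1 they were 10.4% and 66.2% (-55.8 points), from 14 female and 13 male reads only. The window after it held no call in either liver, so its border on that side was not measured. The remaining 2, at 3132001 to 3134000 and 3146001 to 3148000 of NW_006890092.1, had -57.3 and -56.9 points and belong to the 34 kb stretch.

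**Figure D4:**
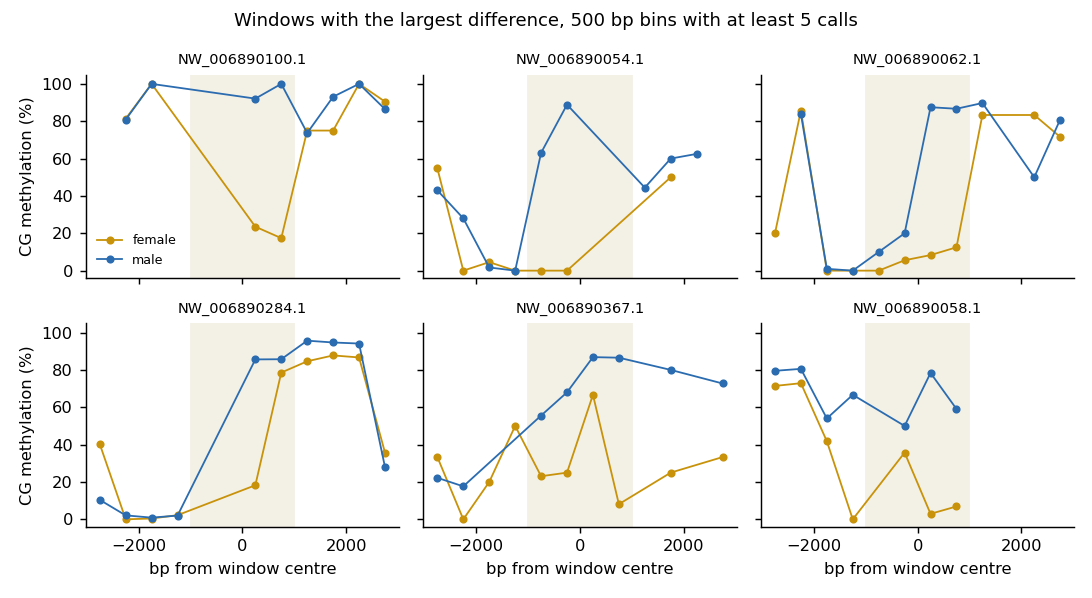
CG methylation (percent) in 500 bp bins of the female (gold) and male (blue) livers over 6 kb centred on 6 of the 8 kept windows with the largest difference, the window itself shaded, position in bp from its centre. Bins with under 5 calls in a liver are left out and lines join across them. In NW_006890054.1, NW_006890062.1 and NW_006890284.1 both livers are near 0% before or at the start of the shaded window, and only the female is low further in. In NW_006890284.1 the bins between had too few calls to be drawn.

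The 6 kept windows with the most calls in the liver with fewer had counting errors of 6.81 to 9.42 points (SE). At 10000001 to 10002000 of NW_006890065.1, 172 of 414 female calls (41.5%) and 442 of 556 male calls (79.5%) were methylated, a difference of -38.0 points with a counting SE of 7.15. At 3188001 to 3190000 of NW_006890130.1 the levels were 43.8% of 281 calls and 91.3% of 265 calls. At 3664001 to 3666000 of NW_006890117.1 they were 50.0% of 242 and 91.0% of 491. Both of the latter lay in highly methylated surroundings, 77.7% and 80.2% in the female. These were outside the range of 40% to 60% in which the share of windows kept was highest. The differences of the other 3, at 4072001 of NW_006890065.1, 700001 of NW_006890068.1 and 106001 of NW_006890099.1, were -35.4, -39.7 and -32.2 points. The difference at 700001 of NW_006890068.1 was -14.4 points when 1 call per read was counted, and to -26.1 over the 4 kb of the 2 windows shifted by 1 kb.

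Scaffolds differed in how many kept windows they held. Of 330 scaffolds 266 had at least 1. Among scaffolds with at least 200 compared windows, the largest share was on NW_006890215.1, with 22 of 529 windows (4.16%) and no mirrored window. Its compared windows had a mean difference of -8.01 points. How this deficit was distributed along the scaffold was not analysed. Next came NW_006890221.1 with 12 of 347 windows and NW_006890253.1 with 9 of 274, at mean differences of -4.19 and -6.64 points. Position relative to scaffold ends made little difference: 8.97% of the kept windows and 9.09% of all compared windows lay within 100 kb of an end.

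One stretch of scaffold NW_006890092.1 held by far the longest unbroken run of lower female levels, and it was picked out after its values had been seen. When the minimum was lowered to 20 calls and the lane limits were dropped, 10609 of 378799 windows (2.8%) had the female lower by 25 points or more. In these, 17 adjoining windows from 3126001 to 3160000 passed without a break, while the next longest runs had 5 windows and the longest run among the 2959 windows (0.781%) with the female higher by as much had 3. Over these 34 kb 488 of 1295 female calls were methylated (37.7%, counting SE 1.93) and 718 of 837 male calls (85.8%, SE 1.41), a difference of -48.1 points. The lanes gave 39.1% and 35.8% in the female and 86.3% and 85.3% in the male. All 6 of its windows with 50 calls in each liver were kept windows. They met the limit of 25 points by the way the stretch was picked, so only the lane limits could have failed them. The levels of the stretch and of its lanes use the calls that picked it, so they are a description only.

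Most female reads of the stretch were at the ends of the scale. Of 119 female reads with at least 3 calls 55.5% were wholly unmethylated, 29.4% wholly methylated and 15.1% mixed, whereas 2.5% of 80 male reads were wholly unmethylated. In all compared windows at a female level of 30% to 40%, 40.9% of female reads were wholly unmethylated, 16.1% wholly methylated and 42.9% mixed. At a male level of 80% to 90%, 2.74% of male reads in all compared windows were wholly unmethylated. Of 29 CG sites with at least 5 calls in each liver 28 were lower in the female. These reads and sites hold the calls that picked the stretch, so they too are a description only. The outline was sharp at the near end, since the 20 kb before it had a female level of 84.6% and a male level of 80.2%. The 20 kb after it had 40.7% and 56.2%.

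Coverage changed along with methylation in this stretch. Relative to the library totals the female had 1.96 times the calls of the male there, 1.04 times in the 20 kb before it and 1.27 times in the 20 kb after it. The centred log2 ratio of calls was above 0.5 in each of the 17 windows, a level reached by 7.11% of compared windows. Compared windows had at least 50 calls in each liver, and only 6 of the 17 had as many. The share among windows with fewer calls was not computed. The part of this extra female coverage in the lower level was not tested.

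**Figure D5:**
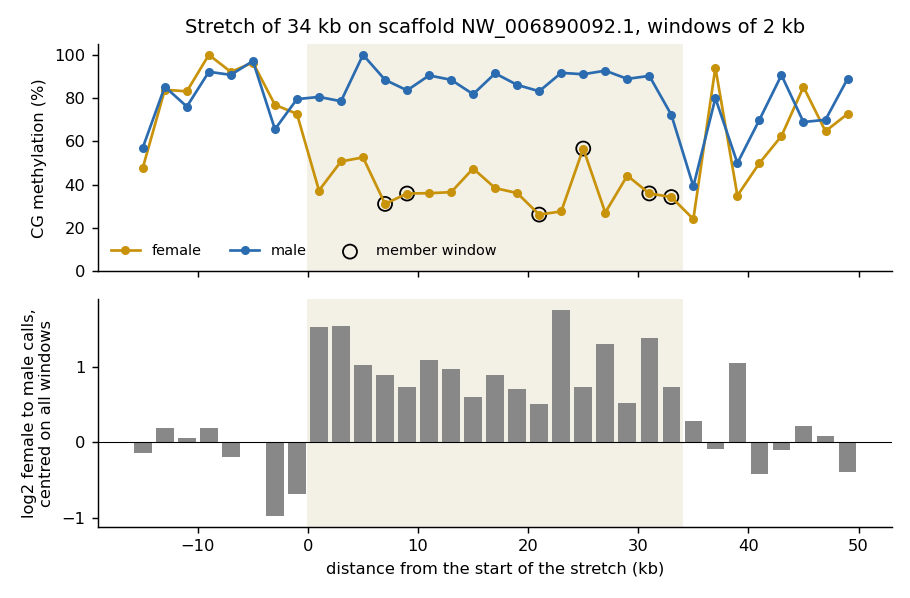
CG methylation (percent) of the female (gold) and male (blue) livers in 2 kb windows along scaffold NW_006890092.1 (top) and the female-to-male log2 ratio of calls, centred on its median over compared windows (bottom), by distance in kb from the start of the 34 kb stretch (shaded). Circles mark the 6 kept windows. In the stretch the female lies below the male in all 17 windows, which follows from how it was picked, and the ratio is above 0.5 in each.

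Larger windows, added after the 2 kb values had been seen, held more calls and kept fewer but more one-sided differences. The mean difference was -2.83 points at 10 kb (SD 5.86) and -2.78 at 20 kb (SD 4.71), against -2.39 at 2 kb (SD 8.81). Female levels were not raised by the median at these sizes. How far the one-sidedness came from the general displacement was therefore not tested. With the same limits, 101 of 86083 windows of 10 kb (0.117%) were female lower and 9 (0.0105%) female higher, and at 20 kb the counts were 14 (0.0323%) and 1 (0.00231%) of 43381. The stretch on NW_006890092.1 gave 2 of the 14, at -39.9 and -48.7 points, and without it 12 remained. Among these, the windows at 860001 of NW_006890058.1 and 5280001 of NW_006890085.1 had only 85 and 74 female calls, no more than many 2 kb windows. Adjoining windows from 120001 to 180000 of NW_006890079.1, 3 in number, had 45.8%, 46.7% and 44.3% in the female and 75.7%, 72.2% and 70.2% in the male. There the log2 ratio of calls relative to the library totals was -0.02, 0.11 and -0.10, so a 60 kb lower level went without a shift in coverage. The window at 600001 to 620000 of NW_006890131.1 had 37.3% against 64.1%, and 3 of its 5 compared 2 kb windows were kept windows.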

How the data were processed

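CG methylation calls from both deep-sequenced livers were analysed. In the deposited files each line is 1 call of the Bismark methylation extractor (v0.14.3), with the read, scaffold, position and a letter, Z for methylated and z for unmethylated. The authors had trimmed reads (Trim Galore v0.4.0, plus bases at the 5' end), aligned them to large scaffolds of assembly 6.1.3 and removed duplicates. The processed reports of the 10 low-coverage libraries hold totals per library and were not used here. Coordinates are 1-based. The gene table at hand was of another assembly, so no gene is named and no sequence printed.

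Calls were summed in 2 kb windows with Python 3.11.15, NumPy 2.4.6, pandas 2.3.3 and Matplotlib 3.10.9. The lane was the fourth colon field of the read name. CG sites were built by joining calls on adjoining cytosines. Standard errors treat reads as units and intervals have a 95% level; both cover counting error only. With 1 animal per sex no test was made. The scripts were tested on simulated data. The kept windows, the limits and the lists were chosen with earlier results of these data known. Regions named are the 6 longest runs, with ties taken by the largest summed difference, and the 8 largest differences. Also named are the 6 windows with the most calls in the liver with fewer and the 3 nearest to the limit on each side. The 3 scaffolds are those with the largest share among scaffolds with at least 200 compared windows. The 34 kb stretch and the larger windows were chosen after the values had been seen. Alternatives were call minimums, window size and start, limits, 1 call per read, centring and the removal of windows with many calls.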

Additional observations from a re-analysis of the deposited data

How the results depend on the processing

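The count of 2151 kept windows depended on the limits. It was 5249 with a minimum of 30 calls and 330 with 100, 4592 at a limit of -20 points and 810 at -30, 1392 when chosen on female levels raised by the median difference, 805 with windows of 5 kb, and 4809 when only 1 call per read counted, with a minimum of 25 such calls. Windows of 10 and 20 kb, chosen after the data had been seen, gave 101 and 14.

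Flanking windows were those 1 to 10 windows away. They reached 20 kb with 2 kb windows, less far with 1 kb windows and further with larger ones. Their mean, -4.81 points with the limits used above, kept its sign throughout. It was -4.56 and -4.18 with 30 and 100 calls, -4.10 and -5.56 at limits of -20 and -30, -4.62 without lane limits, -5.07 with lane limits of -20, -5.10 as measured around the 1392 windows chosen on raised female levels, -5.00 without windows of over 2 times the median calls, -3.29, -6.53, -7.78 and -7.16 with windows of 1, 5, 10 and 20 kb, and -4.93 with windows shifted by 1 kb.

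The share of kept windows with fewer CG sites than the median, 70.8%, was 77.0% and 58.2% with 30 and 100 calls, 68.2% and 74.3% at -20 and -30, 66.8% without windows of many calls, and 62.2%, 83.2%, 81.2% and 92.9% with windows of 1, 5, 10 and 20 kb. Of 39 named windows, 37 moved by less than their 95% counting interval with 1 call per read and 35 with the shifted start, and none changed sign. Both settings reuse calls by which the windows were picked, and the shifted one covers 4 kb that hold the whole window. An unchanged sign was therefore largely set in advance. The smallest differences were -8.06 points with 1 call per read and -13.9 points with the shifted start.

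No paired analysis was possible because each sex had 1 deep-sequenced animal. The depth of 50 to 100 calls in 84.7% of the kept windows limits every single value, and the difference between 1 female and 1 male says nothing of the sexes in general.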
